A study of Mus musculus with 768 samples.

Results

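High endothelial cells line the venules through which lymphocytes leave the blood. The cells described here are the single endothelial cells of PyMT tumours (TU_HEV), set against the single high endothelial cells of lymph nodes (LN_HEV), both sorted with the same antibody gate. They were chosen by library and by filters on reads and on 5 endothelial genes (Pecam1, Cdh5, Tie1, Egfl7 and Eng), and by no other gene compared: 98 TU_HEV cells (50 of pool3 and 48 of pool4) and the LN_HEV cells of pool1 (65) and pool2 (82) were kept, together 31.9% of the 768 single-cell libraries of the series.

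Per the labels, both groups were CD45-CD31+MECA79+ cells of mice. TU_HEV came from tumours labelled PyMT, after polyoma middle T antigen, a viral oncogene that drives mouse mammary tumours, and filled the plates pool3 and pool4. LN_HEV came from lymph node and filled pool1 and pool2. Before sorting, tumour suspensions had been depleted of CD45-positive and EpCAM-positive cells with beads. The labels used here give no strain, age, sex, treatment or animal for either group, so each group was treated as 1 sample and no test was made. Tissue cannot be told apart from plate, because no plate held both groups.

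High endothelial cells present sulfated and fucosylated sugars on sialomucin proteins. L-selectin on lymphocytes binds these sugars, the chemokine CCL21 then activates lymphocyte integrins, and the cells cross the wall. MECA-79 is an antibody against the sulfated sugar, so both groups were selected for that epitope. In lymph nodes the endothelial cells depend on lymphotoxin signals to keep this state, and vessels bound by MECA-79 also occur in tumours.

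Each library holds reads of whole transcripts made with Smart-seq2, without molecular identifiers. Totals per retained cell were 276667 to 4002554 counts in TU_HEV (median 1431389) and 96741 to 1678516 in LN_HEV (median 1063506). More wells were empty or shallow in TU_HEV, where 72 wells of the pair of 96-well plates had under 50000 counts, against 24 wells in LN_HEV. Libraries of pool1 and of the tumour plates overlapped: 14 pool1 libraries contained nearly all counts of another library, gene by gene, and the 22 contained libraries were all from pool3 or pool4. Of these 14, 11 were left out of LN_HEV, and the 3 that stayed held 182574 such counts, 0.123% of all LN_HEV counts. Among the contained libraries, 16 are retained TU_HEV cells. Of the endothelial genes used to keep cells, Pecam1, an adhesion molecule of all endothelium, stood at 2367 and 2823 CPM in TU_HEV, against 1732 and 2467 CPM in LN_HEV. At least 3 of the 6 markers of leukocytes, of epithelial and tumour cells, or of mural cells and fibroblasts reached 10 CPM in 0 TU_HEV cells and 8 LN_HEV cells.

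For each group and each plate, the counts of all retained cells were added up and scaled to counts per 1000000 (CPM). In every pair of CPM values below, the TU_HEV values are those of pool3 and pool4 and the LN_HEV values those of pool1 and pool2. A gene was called higher or lower in TU_HEV where it reached 20 CPM in the higher group, the ratio of the group sums was at least 4, and each of the 4 pairs of plates differed at least 2-fold the same way. Sums under 3 counts were set to 3. Of 7355 genes that reached 20 CPM in a group, 508 (6.91%) were called higher in TU_HEV and 2.53% lower, and 71.95% lay within 2-fold. At a ratio of 2 in place of 4, 828 genes (11.3%) were higher and 3.34% lower. With the 11 pool1 libraries kept, 3.66% of genes were higher and 2.12% lower, and the Cd36 ratio given below became 6.69 and that of Selp 6.07. Without pool2, 12.2% were higher and 2.16% lower. Intervals of ratios are exact 95% intervals for counting error only, with each read taken as an independent count. Reads copied by PCR are not independent molecules, so these intervals do not cover the counting error of molecules. Intervals of shares of cells are exact binomial 95% intervals. Both kinds say nothing of variation between animals.

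**Figure D1:**
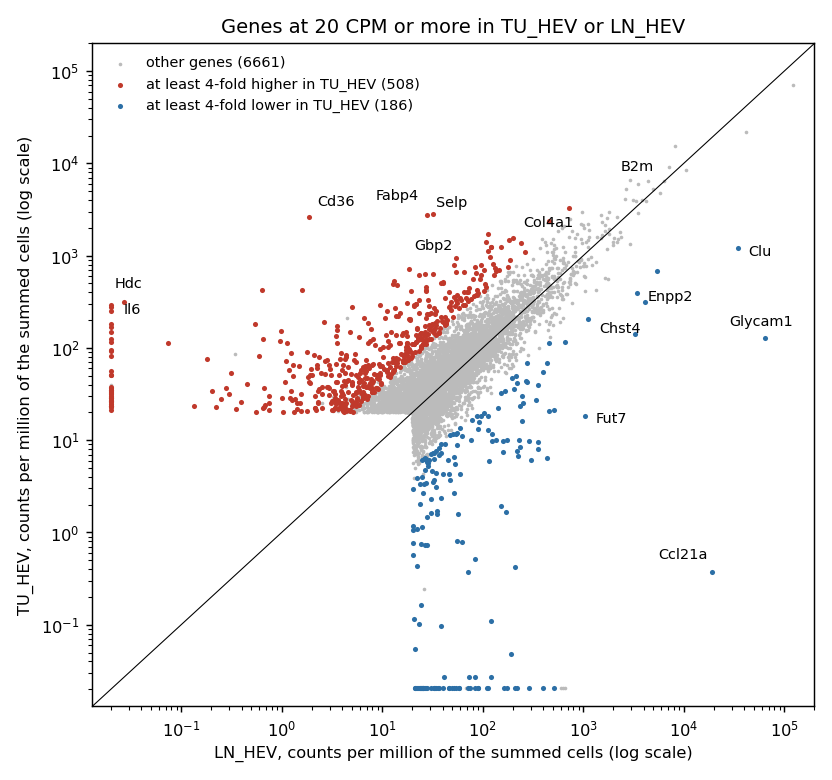
CPM of the summed cells in LN_HEV (horizontal, log scale) against TU_HEV (vertical, log scale) for 7355 genes, with sums under 3 counts drawn at 3. The 508 called higher in TU_HEV are red and those called lower, 2.53%, are blue. Cd36, Selp and Fabp4 stand high on the left, while Glycam1 and Ccl21a stand far to the right.

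Genes called higher took 9.66% of TU_HEV counts and 1.17% of LN_HEV counts. Genes called lower took 0.465% of TU_HEV counts and 15.5% of LN_HEV counts. Since these genes were called for their difference, the direction of these shares follows from the rule and is not a separate result. The 10 most abundant genes took 15.7% of counts in TU_HEV and 32.1% in LN_HEV, where Glycam1 alone stood at 64620.0 CPM. Large shares lower the CPM of the other genes of a group. Ribosomal RNA features took 8.09% of TU_HEV counts and 13.5% of LN_HEV counts. The median log2 ratio of the 7355 genes was 0.32, and what it came from was not tested. Most list medians below are also given after subtracting it. TMM scaling of the library sizes brought that median to 0.003, with 5.09% of genes higher and 3.27% lower. CPM without ribosomal RNA, mitochondrial genes and the 20 highest genes brought it to -0.02, with 4.91% higher and 3.85% lower. Across the 7355 genes the Spearman coefficient was 0.834 between the TU_HEV plates, 0.871 between the LN_HEV plates and 0.627 to 0.661 between a TU_HEV and an LN_HEV plate. These are descriptions over genes, which are not independent replicates.

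The first genes described are those of the sugar epitope that the sort selected. Chst4, at chr8:110029153-110039740 (GRCm38), encodes the sulfotransferase chiefly responsible for MECA-79 binding in lymph nodes. Its level was 290.6 and 140.9 CPM in TU_HEV, against 789 and 1344 CPM in LN_HEV. The plates of the groups did not overlap, and the group sum was 5.40-fold lower in TU_HEV (interval 5.33 to 5.46). Both the number of cells with a count and the level in those cells were lower in TU_HEV. After each cell was thinned to 100000 counts, 41 of 98 TU_HEV cells (41.8%, interval 31.9% to 52.2%) had a count of Chst4, against 97.9% of LN_HEV cells (interval 94.1% to 99.6%). Among cells with a count the median level was 424 CPM in TU_HEV and 961 CPM in LN_HEV. Chst4 was no longer called without pool4 and without pool2, and pool3 and pool1 were the pair that differed least.

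The other enzymes of the L-selectin ligand did not move together. Chst2, a second sulfotransferase of the same step, stood at 39.2 and 53.1 CPM in TU_HEV, against 153.5 and 226.1 CPM in LN_HEV, 4.18-fold lower. Fut7, the fucosyltransferase that finishes the sialyl Lewis x cap, stood at 26.6 and 11.9 CPM in TU_HEV, against 813 and 1205 CPM in LN_HEV, 56.8-fold lower (interval 54.6 to 59.0). It had a count in 9.18% of TU_HEV cells and 95.9% of LN_HEV cells. Gcnt1, which starts the core 2 branch that carries the cap, was 27.6-fold lower, at 3.02 and 12.8 CPM in TU_HEV, against 197.8 and 259.3 CPM in LN_HEV. B3gnt3, which extends the core 1 branch that carries the MECA-79 epitope, ran the other way at 100.9 and 78.9 CPM in TU_HEV, against 25.1 and 35.1 CPM in LN_HEV, a ratio of 2.86 that does not reach 4. Of the 14 list members at 20 CPM, 4 were called lower and 0 higher, beside 2.53% and 6.91% of all genes. Their median log2 ratio was -0.66, and -0.98 after subtracting that of all genes, with -1.07 to -0.29 over the plate pairs. The call of Chst2 was lost without pool3 and without pool2.

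The proteins that carry these sugars split. Glycam1, at chr15:103562759-103565081, encodes a secreted mucin that is a major L-selectin ligand of lymph nodes. It stood at 177.6 and 88.3 CPM in TU_HEV, against 70726 and 60382 CPM in LN_HEV. That is 506-fold lower (interval 499 to 513), and no TU_HEV plate was above an LN_HEV plate. Single TU_HEV cells with a count reached at most 3654 CPM, and 25 of 98 thinned TU_HEV cells had one, against 100% of LN_HEV cells. Parm1, a mucin-like membrane protein, was at 0 counts in TU_HEV, against 116.2 and 108.9 CPM in LN_HEV, which is at least 5454-fold lower. Podxl, an anti-adhesive sialomucin of many endothelia, was 5.10-fold higher at 93.1 and 93.8 CPM in TU_HEV, against 12.4 and 22.4 CPM in LN_HEV. Cd34 and Emcn, sialomucins of most endothelial cells, each stood 1.99-fold higher, under the ratio of 4. Madcam1, the addressin of mucosal venules, was low in both, at 17.2 CPM in TU_HEV and 23.7 CPM in LN_HEV. Of 6 members at 20 CPM, 1 was called higher and 2 lower, beside 6.91% and 2.53% of all genes. The members' median log2 ratio of 0.26 ran from -1.52 to 0.72 over the plate pairs, so its sign differs between plates. It was -0.06 after subtracting that of all genes.

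Among genes known from the function of lymph node venules, 4 of 9 were called lower, beside 2.53% of all genes. The others were level or ran the other way. Ccl21a, the chemokine that arrests rolling lymphocytes, stood at 0.0465 and 0.637 CPM in TU_HEV (55 counts), against 14964 and 21958 CPM in LN_HEV. Near-identical copies of this gene lie in the mouse genome, so how reads were shared among them is uncertain. Enpp2, which makes lysophosphatidic acid, stood at 401 and 382.6 CPM in TU_HEV, against 2363 and 4211 CPM in LN_HEV, 8.84-fold lower. Its share of cells was 51.0% in TU_HEV and 100% in LN_HEV. Apoe, a lipid carrier, was 8.02-fold lower, at 731 and 637 CPM in TU_HEV, against 4406 and 6167 CPM in LN_HEV. Sphk1, a sphingosine kinase, was 4.69-fold lower, a call lost once the 4 libraries that fail the endothelial rule were added (3 in TU_HEV). Lrg1, a glycoprotein abundant in high endothelial cells, did not separate the plates, at 4721 and 3436 CPM in TU_HEV, against 2898 and 4439 CPM in LN_HEV. Tspan7, a tetraspanin, and Spns2, a transporter of sphingosine 1-phosphate, had ratios of 3.40 and 2.16, higher in TU_HEV but under 4. Ubd, a ubiquitin-like protein, overlapped between the groups, at 1349 and 458 CPM in TU_HEV, against 927 and 1624 CPM in LN_HEV. None of the 9 was called higher, and the members' median log2 ratio was -0.65 (-0.97 after subtracting that of all genes; -1.83 to -0.000978 over the plate pairs).

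**Figure D2:**
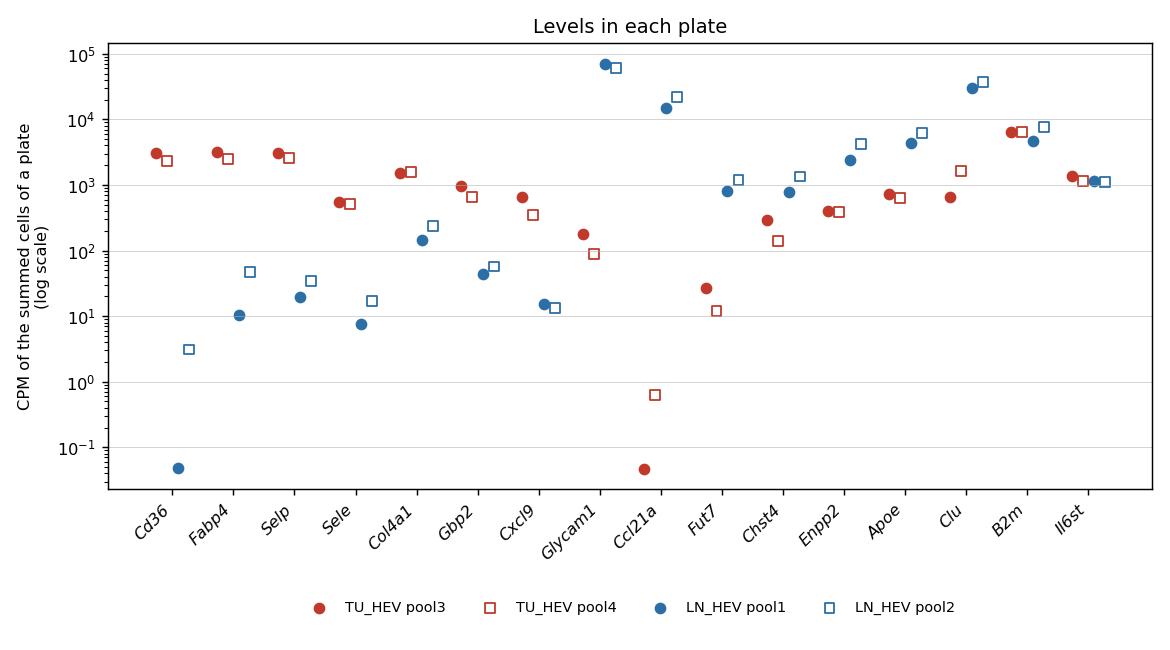
CPM (log scale) of the summed cells of each plate for 16 genes, with TU_HEV plates in red (pool3 filled circles, pool4 open squares) left of LN_HEV plates in blue (pool1 filled circles, pool2 open squares). The plates of a group lie close together for most genes, and Cd36 in LN_HEV differs between pool1 at 0.0492 CPM and pool2 at 3.11 CPM.

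By the size of the difference in CPM, the genes lowest in TU_HEV after Glycam1 were Clu and Ccl21a. Clu, a secreted chaperone, stood at 649 and 1635 CPM in TU_HEV, against 30299 and 37418 CPM in LN_HEV, 28.8-fold lower. Mfge8, a secreted bridge between dying cells and phagocytes, was 13.4-fold lower and Serpina1b, a serine protease inhibitor of the alpha-1-antitrypsin family, 23.3-fold lower. Serpina1b has near-identical relatives among which reads could be split, and with the 3 TU_HEV libraries that fail the endothelial rule it was 17.8-fold lower. Susd2, a membrane protein with a sushi domain, was 5.75-fold lower, at 96.5 and 129.3 CPM in TU_HEV, against 598 and 704 CPM in LN_HEV.

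By ratio, 15 lower genes were named among 59 that reached 100 CPM and 50% of the thinned cells in LN_HEV. Dclk1, a microtubule-associated kinase, had 3 counts in TU_HEV, against 385.4 and 414 CPM in LN_HEV, a ratio of 19619 on those counts (interval 6713 to 95138). Ggt5, which processes glutathione conjugates such as leukotriene C4, had 1 count in TU_HEV, against 312.4 and 269.3 CPM in LN_HEV. Ptgds, a prostaglandin D synthase, had 1 count, against 145.3 and 270.9 CPM in LN_HEV, and Cd24a, a small mucin-like surface protein, 1 count, against 224.7 and 201.7 CPM in LN_HEV. Nefh, a neurofilament protein, had 2 counts and Hap1, a huntingtin-associated protein, 16 counts in TU_HEV, against 139.9 and 181.8 CPM and 75.8 and 152.4 CPM in LN_HEV. Ly6i, a small GPI-anchored surface protein, had 7 counts in TU_HEV, against 154.1 and 217.1 CPM in LN_HEV. Transcription factor genes were among them too. Tox2 stood at 0.424 CPM in TU_HEV and 210.9 CPM in LN_HEV, and Mycn at 0 and 2.99 CPM in TU_HEV, against 115.8 and 207.6 CPM in LN_HEV. The collagen receptor Ddr2 and the guidance receptor Robo2 depended on the cells kept: Robo2 had 0 counts in the 98 TU_HEV cells and was 82.1-fold lower with the 3 further libraries, and Ddr2 was 4466-fold and 74.2-fold lower.

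Genes of blood capillaries and fatty acid uptake were higher in TU_HEV by the widest margin of any of the 25 lists. The lists and their members were chosen with earlier results of these data known, so this rank is a description and not a separate result. Cd36, at chr5:17781690-17888801, encodes a receptor that takes up long-chain fatty acids. It stood at 3022 and 2292 CPM in TU_HEV, against 0.0492 and 3.11 CPM in LN_HEV, 1410.5-fold higher (interval 1253 to 1593). Ratios of genes nearly absent from a plate of LN_HEV move widely with that plate, and Cd36 was 842-fold higher without pool1 and 53164-fold without pool2. A count was found in 90.8% of TU_HEV cells (interval 83.3% to 95.7%) and in 2.05% of LN_HEV cells (interval 0.426% to 5.89%). Fabp4 and Fabp5, intracellular fatty acid carriers, were 87.6-fold and 15.3-fold higher. Fabp4 stood at 3199.5 and 2493 CPM in TU_HEV, against 10.3 and 47.1 CPM in LN_HEV.

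Gpihbp1, which anchors lipoprotein lipase in capillaries, stood at 409 and 441 CPM in TU_HEV, against 2.34 and 1.06 CPM in LN_HEV, with a count in 31.6% of TU_HEV cells and 3.42% of LN_HEV cells. Lpl, the lipase itself, had 92.6 and 190.2 CPM in TU_HEV, against 2 counts in LN_HEV, and Car4, a capillary carbonic anhydrase, 490.5 and 131.2 CPM in TU_HEV and 1 count in LN_HEV. With that 1 count as it stands, without the floor of 3, the ratio of Car4 was 43153 (interval 7745 to 1704490.0), and with the floor it was 14384. Aqp1, a water channel, was 15.1-fold higher and Meox2, a homeobox factor of capillaries that carry fatty acids, 8.74-fold higher. Cd300lg, a receptor of capillaries and high endothelial venules, was the exception at 683 and 633 CPM in TU_HEV, against 732 and 871 CPM in LN_HEV. Of 12 members at 20 CPM, 11 were called higher and 0 lower, beside 6.91% and 2.53% of all genes. The median log2 ratio was 6.54, or 6.22 after subtracting that of all genes, with 6.70 to 7.11 over the plate pairs. The list holds members whose LN_HEV sums are at or under 3 counts, so this median rests in part on that floor.

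The members of this list were not in all TU_HEV cells, nor in the same ones. Gpihbp1 and Selp, the P-selectin gene of venules, were both found in 10 of the 98 thinned TU_HEV cells, Gpihbp1 alone in 21, Selp alone in 65 and neither in 2. Cd36 crossed that division: of the 75 cells with a count of Selp, 74 had one of Cd36, and of the 31 with a count of Gpihbp1, 25 did. All 41 TU_HEV cells with a count of Chst4 also had counts of Selp and of Cd36, whereas 7 of them had one of Gpihbp1. In LN_HEV 25 cells had a count of Selp, all of them with Chst4, and 0 of these 25 had one of Cd36. Among the 41 TU_HEV cells with Chst4, 11 had a count of Glycam1, 24 of Enpp2, 5 of Fut7 and 0 of Ccl21a. These are counts of cells at 1 depth, and cells are not replicates.

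**Figure D3:**
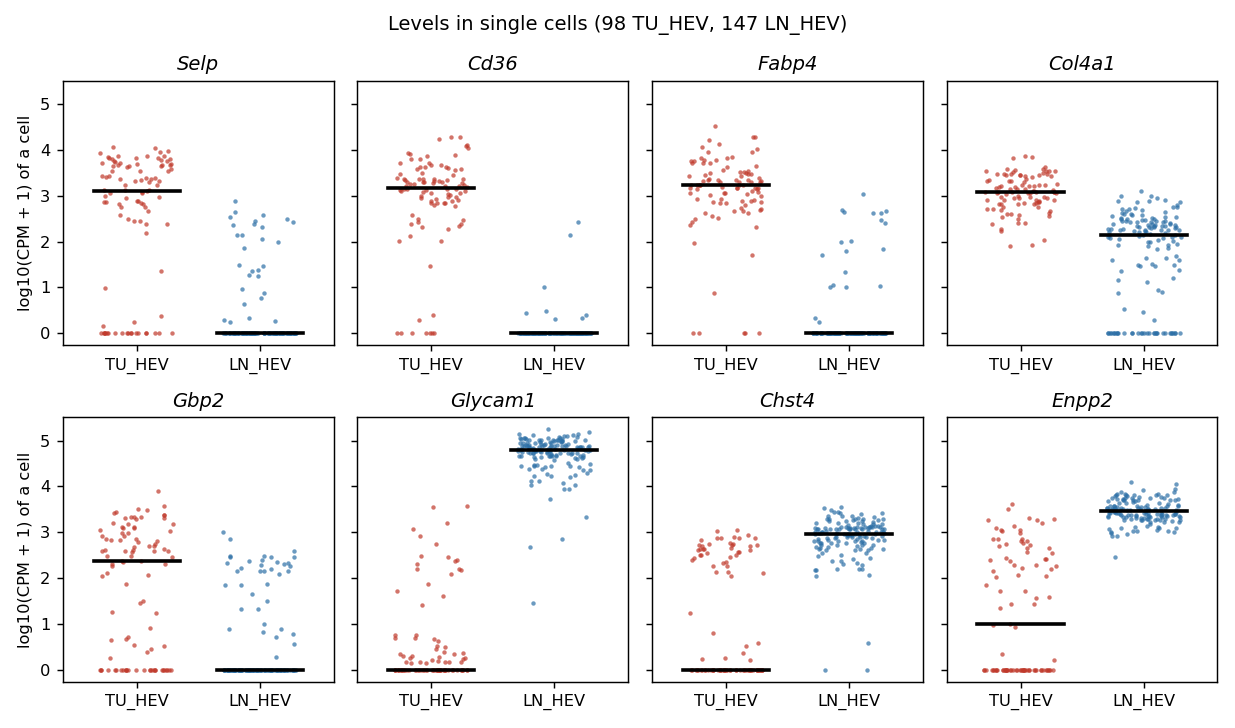
Each point is 1 cell, with log10(CPM + 1) on the vertical axis, TU_HEV (red) left of LN_HEV (blue) in each panel, and the black bar the median. Selp, Chst4 and Enpp2 fall into cells with and without counts in TU_HEV. In LN_HEV most cells lie high for Glycam1 and Enpp2. The lowest Glycam1 value among the thinned LN_HEV cells was 27.2 CPM, against a median of 62696 CPM.

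Venule adhesion genes were higher in TU_HEV for the selectins and not for every member. Selp, at chr1:164115264-164150026, stood at 3025 and 2594 CPM in TU_HEV, against 19.8 and 33.9 CPM in LN_HEV, 99.04-fold higher (interval 96.1 to 102.1). Sele, the E-selectin gene that endothelial cells switch on in inflammation, stood at 545 and 519.6 CPM in TU_HEV, against 7.69 and 16.9 CPM in LN_HEV, 40.5-fold higher. Vwf, which tethers platelets, was 12.1-fold higher, and Vcam1, the ligand of VLA-4, 5.61-fold. Icam1 and Icam2, ligands of LFA-1, had ratios of 1.95 and 1.41. Ackr1, the atypical chemokine receptor of venules, stood at 3626 and 1570.0 CPM in TU_HEV, against 499.6 and 905 CPM in LN_HEV, a ratio of 3.35 that misses 4, and the vein factor Nr2f2 overlapped at 71.1 and 42.0 CPM in TU_HEV, against 23.2 and 67.3 CPM in LN_HEV. Of 10 members, 4 were called higher and 0 lower, beside 6.91% and 2.53% of all genes. The members' median log2 ratio was 1.39 (1.07 after subtracting that of all genes).

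Among the other genes named by ratio, Cdh13, an atypical cadherin that binds adiponectin, was 672-fold higher, at 309.4 and 515 CPM in TU_HEV, against 0 and 1.07 CPM in LN_HEV. Cald1, an actin-binding regulator of contraction, was 155.5-fold higher and Lmcd1, a LIM domain cofactor, 48.2-fold. Thbs1, the anti-angiogenic matrix protein thrombospondin 1, stood at 483 and 491 CPM in TU_HEV, against 3.66 and 19.4 CPM in LN_HEV. The calcium-binding proteins S100a6 and S100a11 were 31.4-fold and 20.2-fold higher. With equal weight per cell, Cdh13 was 219.8-fold and S100a6 7.69-fold higher. Stc1, a secreted glycoprotein, was 26.7-fold higher, Mgll, a monoglyceride lipase, 21.7-fold, Emp1, a small membrane protein, 31.1-fold, and Ptprb, the endothelial phosphatase VE-PTP, 19.9-fold. By difference in CPM, Sparc, Tm4sf1, Aqp1, Col4a1, Sat1, Sparcl1 and Entpd1 joined Fabp4, Selp and Cd36. Tm4sf1, a tetraspanin-like protein of endothelium, stood at 2676 and 2189 CPM in TU_HEV, against 391.3 and 494 CPM in LN_HEV.

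Cell by cell, the 15 genes named higher and the 15 named lower by ratio hardly mixed. TU_HEV cells had counts of 3 to 15 of the higher genes (median 11) and of 0 to 3 of the lower genes (median 0), with 0 lower genes in 68 of 98 cells. LN_HEV cells had counts of 0 to 9 of the higher genes (median 1) and of 3 to 15 of the lower genes (median 11). Of the 30 TU_HEV cells with a lower gene, 25 had Glycam1, and 8 of the 98 had any of the other 14. Since these genes were named for their difference between the groups, the separation is a description and not a separate result.

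**Figure D4:**
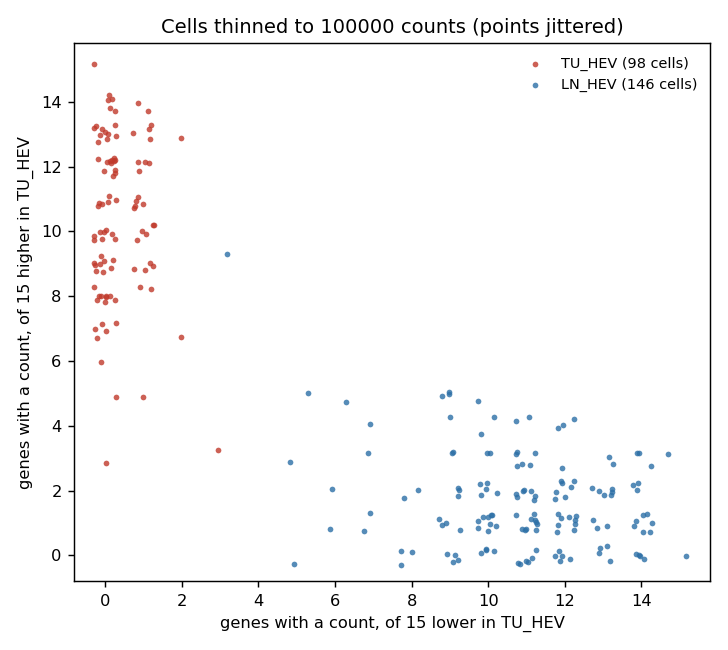
For each cell thinned to 100000 counts, the number with a count among the 15 genes named lower in TU_HEV (horizontal) and among the 15 named higher (vertical), jittered. The 98 TU_HEV cells (red) lie at 0 to 3 lower genes, and the LN_HEV cells (blue) at 3 or more, with 1 LN_HEV cell at 9 higher and 3 lower genes.

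Tip cell genes, which mark the sprouting front of angiogenic vessels, were higher and some differed between the tumour plates. Kcne3, a potassium channel subunit of tip cells, was 70.6-fold higher at 55.9 and 113.7 CPM in TU_HEV, against 0 and 2.12 CPM in LN_HEV. Plaur, the urokinase receptor, was 44.3-fold higher, Nid2, a nidogen, 26.9-fold and Inhbb, an activin subunit, 48.6-fold. Equal weight per cell gave 11.4 for Nid2. Angpt2, the Tie2 ligand that destabilises vessels, was 4.68-fold higher, a call lost under TMM scaling and without the highest genes. Apln, a tip cell peptide, was 10.6-fold higher but not called without pool4. Esm1, a proteoglycan secreted by tip cells, had 0 counts in pool3, 70.8 CPM in pool4 and 0 counts in LN_HEV, so it was not called, since the pool3 pairs showed no difference. Of 9 members, 7 were called higher and 0 lower, beside 6.91% and 2.53% of all genes. The remaining called member, Trp53i11, was 12.2-fold higher, a call lost under TMM scaling, without the highest genes and without pool4. The members' median log2 ratio was 4.75 for the group sums (4.43 after subtracting that of all genes). Plate by plate, the pair medians ran from 2.33 to 4.51, each plate having its own floor of 3 counts.

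Basement membrane genes, which build the sheet under the endothelium, were higher in TU_HEV for most members. Col4a1, a chain of type IV collagen, stood at 1533 and 1598 CPM in TU_HEV, against 142.6 and 238.8 CPM in LN_HEV, 7.87-fold higher, and it had a count in every TU_HEV cell and in 73.3% of LN_HEV cells. Its partner Col4a2 was 9.92-fold higher. Among laminins, Lamb1 was 72.0-fold and Lama4 12.6-fold higher, while Lamc1, Lama5 and Lamb2 had ratios of 3.13, 1.93 and 1.52. Nid1, which links laminin to collagen IV, was 5.68-fold higher, and Sparc, a collagen chaperone, 4.52-fold. Of 14 members, 9 were called higher and 0 lower, beside 6.91% and 2.53% of all genes. The members' median log2 ratio was 2.20, or 1.88 after subtracting that of all genes, with 2.05 to 2.28 over the plate pairs. The calls of Sparc, Col18a1, Hspg2 and Bgn, at ratios of 4.52, 4.51, 4.65 and 8.21, were lost under TMM scaling.

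**Figure D5:**
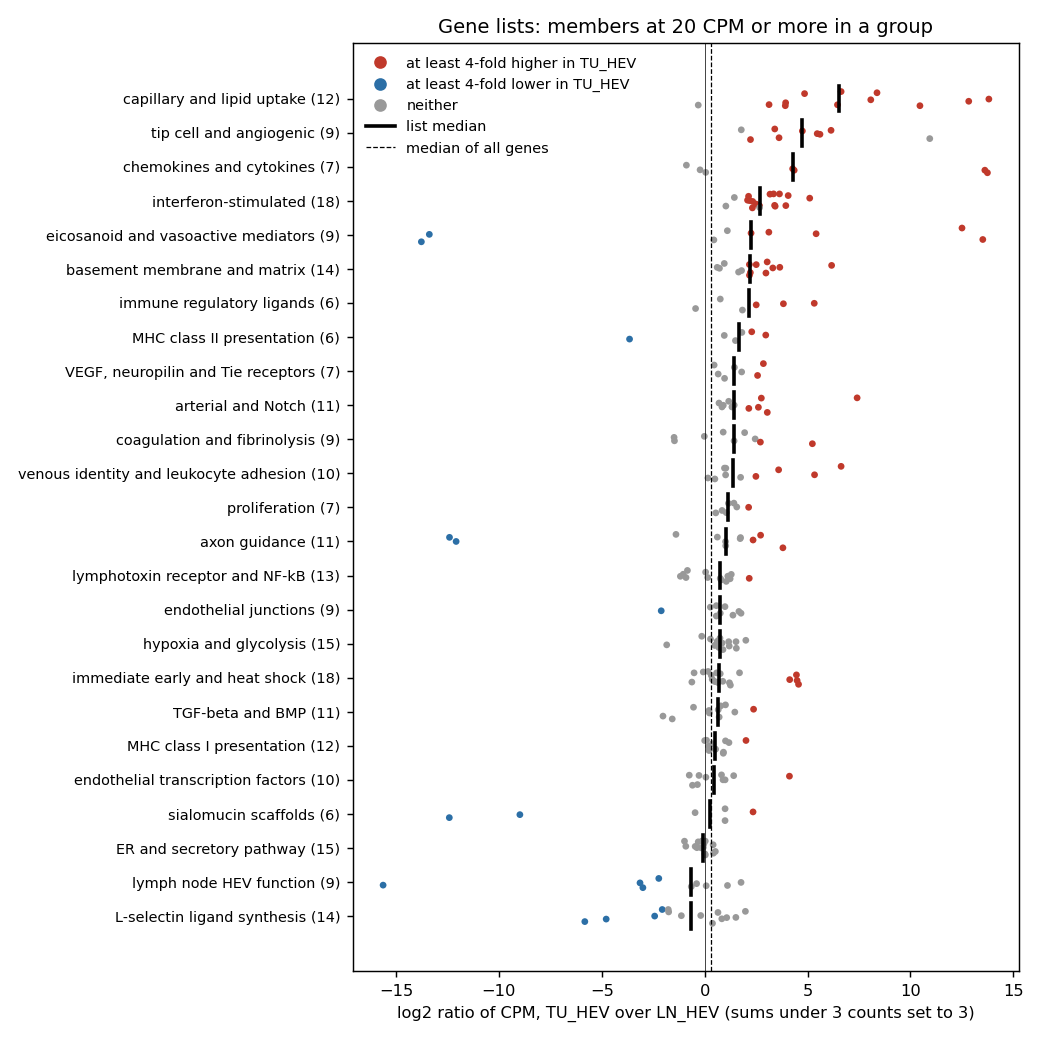
Log2 ratio of CPM, TU_HEV over LN_HEV, for the members at 20 CPM or more of 25 gene lists (number of members in parentheses), with the list median as a black bar and the median of all 7355 genes as a dashed line. Red members were called higher and blue ones lower; the capillary list lies furthest right, and the lists of L-selectin ligand synthesis and lymph node HEV function furthest left.

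Interferon-stimulated genes were higher in TU_HEV across families. Gbp2, at chr3:142620602-142638008, a guanylate-binding GTPase induced by interferon gamma, stood at 980.3 and 651 CPM in TU_HEV, against 44.2 and 57.0 CPM in LN_HEV, 15.4-fold higher (interval 15.0 to 15.7). The immunity-related GTPases Igtp and Irgm1 were 12.4-fold and 4.38-fold higher. Irf1, a transcription factor of this response, stood at 929 and 709 CPM in TU_HEV, against 113.2 and 135.9 CPM in LN_HEV, 6.37-fold higher. Ligands of CXCR3, a chemokine receptor of activated T cells, were among them. Cxcl9 stood at 649.9 and 351.7 CPM in TU_HEV, against 15.1 and 13.3 CPM in LN_HEV, 34.4-fold higher, and Cxcl10 at 663 and 290.7 CPM in TU_HEV, against 11.2 and 38.5 CPM in LN_HEV, 16.7-fold higher. Counts were found in 49.0% and 39.8% of TU_HEV cells and in 6.85% and 8.90% of LN_HEV cells, in that order. With equal weight per cell the ratios were 9.93 for Cxcl9 and 9.95 for Cxcl10.

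Ifit1 and Isg15, antiviral genes of the type I response, were 10.7-fold and 5.64-fold higher, and Ifit3 did not separate the plates at 28.4 and 5.82 CPM in TU_HEV, against 0.0983 and 29.9 CPM in LN_HEV. Of 18 members, 15 were called higher and 0 lower, beside 6.91% and 2.53% of all genes. The median log2 ratio was 2.67 (2.35 after subtracting that of all genes; 2.01 to 4.03 over the plate pairs). Calls of Gbp4, Irf7, Irgm1 and Cxcl11 were lost under TMM scaling, and those of Gbp7 and Usp18 too without the highest genes. Of 12 related MHC class I genes 1 was called higher and 0 lower, beside 6.91% and 2.53% of all genes. This count does not set the list apart from all genes. The called gene was Tap1, a peptide transporter, at a ratio of 4.02, and TMM scaling ended this call too. The list's median log2 ratio was 0.52 (0.20 after subtracting that of all genes). B2m, the class I light chain, stood at 6401 and 6382 CPM in TU_HEV, against 4700.1 and 7565 CPM in LN_HEV.

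Promoters of the interferon-stimulated list were searched in the RefSeq windows for GRCm38.p6, from 250 bases before to 50 after each start. A pair of motifs was searched on both strands: GAAA, then 2 bases of any kind, then GAAA, as in elements bound by interferon regulatory factors, and TTCNNNGAA, as in gamma-activated sequence elements. Windows were found for 15 of the 21 list members. The first motif was in a window of 11 of these 15 genes (73.3%). It was in windows of 3.99% of 27025 genes and of 4.07% of the 5648 genes at 20 CPM with a window. The second was in 4 of 15 (26.7%), against 9.55% and 8.3% in the same order. The list was drawn up from known interferon-stimulated genes, so these shares describe the list and not the difference between TU_HEV and LN_HEV. The windows of Gbp2 and Cxcl10 hold the first motif and that of Irf1 the second. They are shown up to the start site, in the direction of transcription, with matches on either strand in capitals: Gbp2 at chr3:142620413-142620662 on the plus strand, Cxcl10 at chr5:92348890-92349139 on the minus strand and Irf1 at chr11:53769764-53770013 on the plus strand.
Gbp2: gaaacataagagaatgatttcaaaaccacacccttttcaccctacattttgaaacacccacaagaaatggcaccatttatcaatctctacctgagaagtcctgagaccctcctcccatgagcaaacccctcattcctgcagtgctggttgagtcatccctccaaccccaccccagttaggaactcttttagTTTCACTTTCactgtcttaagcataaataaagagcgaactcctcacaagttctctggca
Cxcl10: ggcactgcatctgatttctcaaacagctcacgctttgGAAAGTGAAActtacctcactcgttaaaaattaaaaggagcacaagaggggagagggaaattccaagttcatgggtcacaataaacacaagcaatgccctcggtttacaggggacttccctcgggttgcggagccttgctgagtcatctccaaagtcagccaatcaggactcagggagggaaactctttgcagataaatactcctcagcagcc
Irf1: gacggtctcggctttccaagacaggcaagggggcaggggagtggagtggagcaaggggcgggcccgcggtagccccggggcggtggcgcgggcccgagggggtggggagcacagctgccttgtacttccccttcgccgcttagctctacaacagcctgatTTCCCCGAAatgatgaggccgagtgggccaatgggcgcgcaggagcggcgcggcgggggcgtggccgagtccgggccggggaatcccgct
A match is a run of letters and was not tested as a binding site in these cells. The windows follow RefSeq start sites. The gene position given above for Gbp2, from GENCODE, begins inside its window and ahead of the marked match.

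MHC class II genes, which present peptides to CD4 T cells, were mixed. H2-Ab1 was 4.88-fold and H2-DMb1, a subunit of the peptide exchanger, 7.82-fold higher, while Ctss, the protease that trims the invariant chain, was 12.6-fold lower. Cd74, the invariant chain, was 1.93-fold higher in the sums but had a count in fewer TU_HEV cells, 72.4% against 95.9% in LN_HEV. Of 6 members, 2 were called higher and 1 lower, beside 6.91% and 2.53% of all genes. The call of H2-Ab1 was lost under TMM scaling and without the highest genes.

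Cytokine genes were split between strong and level ones. Il6, an inflammatory cytokine, stood at 325.6 and 236.96 CPM in TU_HEV, against 0 counts in LN_HEV, which is at least 13704-fold higher, with a count in 40.8% of TU_HEV cells. Csf3, which drives neutrophil production, stood at 417 and 123.9 CPM in TU_HEV and 0 counts in LN_HEV, with a count in 19.4% of TU_HEV cells. Csf1, the macrophage growth factor, was 20.4-fold higher at 30.3 and 32.4 CPM in TU_HEV, against 2.67 and 0.762 CPM in LN_HEV. Cxcl1, a neutrophil chemokine, overlapped at 337.01 and 221.98 CPM in TU_HEV, against 169.7 and 328.6 CPM in LN_HEV, and Il15 ran lower, with a ratio of 0.54 that is within the 4-fold limit. Of 7 members at 20 CPM, 4 were called higher and 0 lower, beside 6.91% and 2.53% of all genes. The fourth was Cx3cl1, a membrane-bound chemokine whose call TMM scaling ended.

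Small mediators differed in kind. Hdc, which makes histamine, stood at 366.8 and 273.97 CPM in TU_HEV and had 4 counts in LN_HEV. Nos3, the endothelial nitric oxide synthase, was 8.68-fold higher, with a count in 59.2% of TU_HEV cells and 6.85% of LN_HEV cells. Edn1, the vasoconstrictor endothelin 1, was 42.7-fold higher, and its receptor gene Ednrb stood at 48.8 and 171.3 CPM in TU_HEV, against 1 count in LN_HEV. The eicosanoid enzymes Ptgds and Ggt5 ran the other way, as given above. Of 9 members, 5 were called higher and 2 lower, beside 6.91% and 2.53% of all genes. The fifth, Ltc4s, a leukotriene C4 synthase, had a ratio of 4.77 and lost its call under TMM scaling, without the highest genes, with equal weight per cell, with thinned cells, without pool4 and with the 4 libraries that fail the endothelial rule kept.

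In the lymphotoxin and NF-kB list, 1 of 13 members was called higher and 0 lower, beside 6.91% and 2.53% of all genes. It was Tnfaip3, a feedback inhibitor of NF-kB, at 439.6 and 366.8 CPM in TU_HEV, against 57.5 and 110.8 CPM in LN_HEV. TMM scaling ended that call. Relb and Nfkb2, the pair through which the lymphotoxin receptor acts, were 2.06-fold and 1.79-fold lower, and the receptor gene Ltbr was 2.18-fold higher, all within 4-fold.

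Receptors and arterial genes were called in part. Nrp1, a VEGF co-receptor, was 5.94-fold higher and Aplnr, the apelin receptor, 7.22-fold, while Kdr and Flt1, the VEGF receptors, had ratios of 2.72 and 3.47. Of the arterial and Notch list, 5 of 11 members were called higher, beside 6.91% of all genes: Hey1, Efnb2, Notch4, Cxcl12 and Hes1. Notch4, an endothelial Notch receptor, was 8.24-fold higher at 39.2 and 78.6 CPM in TU_HEV, against 8.98 and 6.35 CPM in LN_HEV. Hes1, a Notch target, was lost under TMM scaling, and Efnb2, the arterial ephrin, without pool1. Of the transcription factors of endothelial identity, 1 of 10 was called higher, Sox7, beside the same 6.91% of all genes. Sox7 stood at 253.9 and 344.3 CPM in TU_HEV, against 25.1 and 12.3 CPM in LN_HEV. Equal weight per cell ended its call at a ratio of 4.70. Its relative Sox18 had a ratio of 0.662, and Erg and Fli1 had 1.76 and 1.99.

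Among 6 immune regulatory ligands, 3 were called higher and 0 lower, beside 6.91% and 2.53% of all genes. Entpd1, which breaks down extracellular ATP, stood at 1444 and 1323 CPM in TU_HEV, against 172.4 and 291.3 CPM in LN_HEV. Nt5e, which turns the product into adenosine, was 14.2-fold higher, and Cd276, an immune checkpoint ligand, 40.1-fold. Cd274, which encodes PD-L1, had a ratio of 1.69. In the axon guidance list 3 of 11 were called higher and 2 lower, beside the same shares of all genes. The higher ones were Plxnd1, a semaphorin receptor, at 5.10-fold, Unc5b and Sema6d, and the lower ones Robo2 and Sema5a. The call of Unc5b was lost under TMM scaling, without the highest genes and without pool4. In the coagulation list 2 of 9 were called higher, beside 6.91% of all genes, among them Thbs1, given above.

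Several lists had 0 or 1 call, beside 6.91% of all genes called higher and 2.53% lower. In lists this short, 0 or 1 call does not set a list apart from all genes. Of the 15 members of the ER and secretory list at 20 CPM, 0 were called in either direction, even at a ratio of 2, and the median log2 ratio was -0.07 (-0.39 after subtracting that of all genes). Of 15 hypoxia and glycolysis genes 0 were called. Their extremes were Slc2a1, the glucose transporter GLUT1, 3.60-fold lower, and Pfkfb3, a glycolysis activator, whose ratio lay just under 4. The junction list had 1 of 9 called lower, Jam3, a junctional adhesion molecule. Jam3 stood at 19.2 and 74.2 CPM in TU_HEV, against 178.6 and 241.9 CPM in LN_HEV. Its call was lost without pool3 and without pool2, and the list's median log2 ratio was 0.76. Pecam1 and Cdh5 of this list and Eng of the TGF-beta and BMP list were among the 5 genes used to keep cells. None of them was called. Of 11 TGF-beta and BMP genes 1 was called higher, Bmp4, and not without pool1. Of 7 proliferation genes 1 was, Tyms, and not under TMM scaling, with a list median of 1.15 (0.78 to 2.10 over the plate pairs).

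The genes of highest level that differed least were named by rule among 58. Besides B2m they included the translation factor Eef1a1, the cyclophilin Ppia, the ferritin chain Ftl1, the protein folding enzymes P4hb and Pdia3, the sphingolipid desaturase Degs1 and Il6st, the signalling receptor of the interleukin 6 family. Il6st stood at 1371 and 1144 CPM in TU_HEV, against 1132 and 1101 CPM in LN_HEV. Fos and Jun, immediate early genes that tissue dissociation can induce, were also among them, with ratios of 1.12 and 0.952.

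Other immediate early genes were mixed, and only Atf3 and Nr4a1 were called, both higher. Ier3 and Zfp36 had ratios of 3.23 and 2.30, under 4. Egr1, Dusp1 and Jund had ratios of 1.69, 1.49 and 1.41, and Fosb and Ier2 of 0.700 and 0.649. Junb also lay within 2-fold. Atf3 stood at 638 and 617 CPM in TU_HEV, against 17.4 and 32.9 CPM in LN_HEV, 23.6-fold higher, and Nr4a1 was 17.5-fold higher. The heat shock genes were mixed too. Hsp90aa1, Hsph1, Dnajb1 and Hspa8 had ratios of 1.56, 1.29, 2.38 and 1.84, under 4. Hspa1a and Hspa1b were 22.5-fold and 22.0-fold higher, with pool4 above pool3. Without pool4 they were 4.83-fold and 7.49-fold higher, and Hspa1a was then not called, nor with equal weight per cell or thinned cells. Of 18 members, 4 were called higher and 0 lower, beside 6.91% and 2.53% of all genes. The members' median log2 ratio was 0.70 (0.38 after subtracting that of all genes). The summed level of the list was 13264 CPM in TU_HEV and 8014 CPM in LN_HEV. Whether handling moved with other gene groups was not tested.

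Markers of other cells were low. The 6 leukocyte markers summed to 215.996 CPM in TU_HEV and 352.4 CPM in LN_HEV, mostly from Lcp1, and 4 of the 6, Ptprc included, were at 0 in TU_HEV. T cell markers summed to 13.5 and 28.2 CPM, B cell markers to 1.49 and 16.0 CPM and myeloid markers to 11.3 and 7.26 CPM in TU_HEV and LN_HEV, in that order. In the same order, lymphatic markers summed to 34.3 and 17.7 CPM, mural and fibroblast markers to 2.19 and 15.4 CPM, and epithelial markers to 0.239 and 0 CPM. Erythroid and platelet markers summed to 6.57 CPM in TU_HEV and 1717 CPM in LN_HEV, where 1 cell held nearly all haemoglobin counts. The part of such cells in the gene groups above was tested only by leaving out the 8 LN_HEV cells with contaminant markers, after which 7.12% of genes were called higher and 2.45% lower.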

How the data were processed

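Single CD45-CD31+MECA79+ cells were sorted into 96-well plates and sequenced after Smart-seq2 with 23 PCR cycles and 75-base single-end reads, per the labels' protocols. The deposited values are raw counts per gene and cell. The submitters' processing notes name STAR 2.4.1b, Subread 1.4.6-p2 and FastQC 0.11.4, with annotation and strand setting not given in the sources, so overlapping and antisense genes may share reads. Of the 51826 features, 47624 (92.1%) were found in GENCODE M21 for GRCm38, which gave positions.

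Cells were kept at 50000 counts, 1000 genes, at most 30% mitochondrial counts, and 2 of 5 endothelial genes at 10 CPM. No doublets were called, since wells were sorted singly. Counts were summed by group and plate (Python 3.11.15, pandas 2.3.3, SciPy 1.17.1). Each group is 1 sample with no animals named, so no test was made, and plates may be technical repeats. TMM factors came from edgeR 4.0.16. Shares of cells used 100000 counts per cell, which left out 1 LN_HEV cell. The calling procedure was tested on simulated sums with counting error only. They held no variation between cells, plates or animals, so this test says nothing of how such variation affects the calls.

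Named genes were the 15 called each way of largest ratio (100 CPM and 50% of thinned cells in the higher group), the 10 called each way of largest CPM difference, the 10 highest genes within 1.25-fold, and members of 25 lists. Members and lists were chosen with earlier results of these data known. Alternatives in scaling, cells, filters and plates are given at the end. TU_EC cells of the series were not used here. A few named genes are not reported here.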

Additional observations from a re-analysis of the deposited data

Results flagged for a closer look

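The 11 pool1 libraries that were left out of LN_HEV carry a signal outside the comparisons above. Summed, they had 2290.5 CPM of Cd36 and 2564 CPM of Selp. In the retained cells Cd36 stood at 2614 CPM in TU_HEV and 1.85 CPM in LN_HEV, and Selp at 2785 CPM in TU_HEV and 28.1 CPM in LN_HEV. Glycam1 stood at 12450.0 CPM in the 11 libraries. These libraries contain the counts of tumour libraries gene by gene, and how the counts came together was not tested.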

How the results depend on the processing

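Of 18 alternatives, 2 were chosen after seeing the data, and 14 change the cells, scaling or floor. Under these 14 no called named gene turned round. Of the 25 list medians, those of the sialomucin list (0.26 above) and the ER and secretory list (-0.07), neither past 1 on the log2 scale, changed sign: the first under TMM scaling, without the highest genes, with the 11 pool1 libraries kept and without pool3, the second without pool4 and without pool2. Shares here are of the genes tested under each setting, beside 6.91% higher and 2.53% lower in the comparison above. The higher share was 3.66% with the 11 pool1 libraries kept, 6.38% (1336 genes) with no filter on low values, 8.44% at 50 CPM, 11.3% (828 genes) at a ratio of 2 and 3.34% at a ratio of 8. The lower share was 3.85% without ribosomal RNA, mitochondrial and the 20 highest genes, 5.69% (1192 genes) with no filter and 2.47% (97 genes) at 50 CPM. Leaving out 1 plate at a time gave 6.65% to 12.2% higher and 2.16% to 3.76% lower. Higher genes made up 73.2% of calls, 60.9% under TMM scaling, 56.1% without the highest genes, 63.3% with the 11 libraries kept and 84.9% without pool2. Of the named genes, 19 lost their call under TMM scaling, 20 without the highest genes, 36 with the 11 libraries kept and 12 without pool4. The cause was not tested. Leaving out the 3 further pool1 libraries that hold tumour counts gave 6.84% higher and 2.54% lower, and keeping the 4 libraries that fail the endothelial rule gave 6.98% and 2.38%. With 1 sample a group, variation between animals is unknown. No paired analysis was possible because the plates carry no shared replicate numbers and no test was made.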

Other observations

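Pf4, a chemokine best known from platelets, stood at 11.8 and 2.22 CPM in TU_HEV, against 421 and 449 CPM in LN_HEV, with a count in 6.12% of TU_HEV cells and 83.6% of LN_HEV cells. The platelet genes Ppbp and Gp1bb had 0 counts in both groups. In LN_HEV 1 cell of pool2 held 99.99% of the Hbb-bs counts.

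In TU_HEV cells, Il6 and Selp were both found in 36 of 98 thinned cells, Il6 alone in 4, Selp alone in 39 and neither in 19. Il6 was found with Chst4 in 21 cells and without it in 19. Sele was found with Selp in 57 cells and without it in 1. Lpl was found with Selp in 3 cells and without it in 8. These pairs were chosen after their values were seen.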
